A study of Mus musculus with 2 samples.

Results

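The mouse genes examined encode the nuclear part of the mitochondrial respiratory chain and of ATP synthase. They are the protein-coding genes on the autosomes and the X chromosome whose symbol starts with Nduf, Uqcr, Cox4 to Cox8 or Atp5, together with Sdha, Sdhb, Sdhc, Sdhd and Cycs. The rule found 93 gene records with 92 symbols among 22350 protein-coding genes of build NCBIM37. Of these, 87 were classed as subunits, isoforms or assembly factors. The other 6 records were found by the start of their symbol and kept in a class of their own. They are Cox7a2l, Cox4nb, Atp5s, Atp5sl, Atp5l-ps1 and a second record of Ndufb8. The chromatin came from 3T3 mouse embryonic fibroblasts with the genotype Ccnd1-/-, in which FLAG-tagged cyclin D1 was stably expressed from an MSCV retroviral vector. Both libraries came from these untreated cells, 1 precipitated with the M2 antibody against FLAG and 1 with normal mouse IgG as the background control. Cells without the tagged protein are not analysed here, and the level of the vector-borne protein relative to natural cyclin D1 is not given in the sources used here. Introns 1 to 3 of Ccnd1 held 2 anti-FLAG and 2 IgG tags, where 17.94 and 18.05 would be the genome-wide mean.

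The respiratory chain sits in the inner mitochondrial membrane. Complex I takes electrons from NADH and complex II from succinate, complex III passes them to cytochrome c, and complex IV hands them to oxygen. Complexes I, III and IV pump protons, and complex V, the ATP synthase, lets the protons back and makes ATP. Mitochondrial DNA encodes some subunits of complexes I, III, IV and V, and the nucleus encodes the rest and all of complex II. The transcription factors NRF1 and GABP, the last an ETS factor, bind many of the nuclear promoters. Cyclin D1 is the G1 partner of CDK4 and CDK6, and in earlier work it was reported to restrain mitochondrial function and NRF1.

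The anti-FLAG library held 9259840 tags and the IgG library 9312346, so a window of 1 kb either side of a transcription start site (TSS) would hold 7.25 and 7.29 tags at the genome-wide mean. A tag is a mapped read of 36 bp, counted at the estimated centre of its fragment. Neither antibody has a replicate library, so every test compares these libraries only, and intervals, at the 95% level, cover counting error only. The anti-FLAG library also covered GC-rich DNA better: in 500-bp windows over 10 kb from every TSS, the anti-FLAG to IgG ratio was 0.761 at 32 to 34% GC, 1.34 at 50 to 52% and 2.18 at 60 to 62%. The promoters of the 93 genes had a median GC of 51.0%, with a range of 39.0 to 64.0%, and all protein-coding promoters had a median of 51.1%.

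The promoter sequences below show the elements that the counts are later set beside. They are those of the 4 genes of smallest p within 1 kb that hold at least 1 searched element, and of Cycs, the gene of cytochrome c, a textbook NRF1 target. Each runs from 250 bases before to 50 after the TSS in build NCBIM37. Capitals mark matches on either strand to the NRF1 element (GCGCANGCG) and the cyclic AMP response element (TGACGTCA). They also mark SP boxes, spelled GGGCGG. The last element marked is the CCAAT box, known to bind the factor NFY. Ndufaf3, at chr9:108469624-108469923 on the minus strand, encodes a complex I assembly factor. Ndufs7, at chr10:79711616-79711915 on the plus strand, encodes a core subunit with an iron-sulfur cluster. Ndufa6, at chr15:82184672-82184971 on the minus strand, encodes an accessory subunit of complex I. Atp5g1, at chr11:95936935-95937234 on the minus strand, encodes subunit c of the ATP synthase ring. Cycs lies at chr6:50516488-50516787 on the minus strand.
Ndufaf3: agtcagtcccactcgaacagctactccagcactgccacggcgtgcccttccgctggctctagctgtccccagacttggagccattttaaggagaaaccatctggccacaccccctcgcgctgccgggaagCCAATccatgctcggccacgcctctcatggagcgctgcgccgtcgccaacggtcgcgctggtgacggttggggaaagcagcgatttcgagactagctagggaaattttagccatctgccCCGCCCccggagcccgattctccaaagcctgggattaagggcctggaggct
Ndufs7: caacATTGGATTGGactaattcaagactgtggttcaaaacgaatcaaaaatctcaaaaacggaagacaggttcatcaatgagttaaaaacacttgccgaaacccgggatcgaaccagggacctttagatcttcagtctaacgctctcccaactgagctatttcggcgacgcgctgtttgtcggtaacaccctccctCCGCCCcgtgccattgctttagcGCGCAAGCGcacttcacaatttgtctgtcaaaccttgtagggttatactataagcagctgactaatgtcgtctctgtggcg
Ndufa6: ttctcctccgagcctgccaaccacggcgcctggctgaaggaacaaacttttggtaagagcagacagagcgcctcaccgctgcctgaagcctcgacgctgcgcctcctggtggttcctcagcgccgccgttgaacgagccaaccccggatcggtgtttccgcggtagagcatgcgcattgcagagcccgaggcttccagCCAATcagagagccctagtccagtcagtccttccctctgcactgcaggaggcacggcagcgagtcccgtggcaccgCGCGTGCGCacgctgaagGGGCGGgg
Atp5g1: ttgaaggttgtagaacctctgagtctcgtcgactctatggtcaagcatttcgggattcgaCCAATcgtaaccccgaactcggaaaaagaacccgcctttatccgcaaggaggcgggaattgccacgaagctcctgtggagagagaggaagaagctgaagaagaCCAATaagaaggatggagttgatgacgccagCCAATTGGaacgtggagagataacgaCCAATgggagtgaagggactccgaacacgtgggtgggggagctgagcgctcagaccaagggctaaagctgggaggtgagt
Cycs: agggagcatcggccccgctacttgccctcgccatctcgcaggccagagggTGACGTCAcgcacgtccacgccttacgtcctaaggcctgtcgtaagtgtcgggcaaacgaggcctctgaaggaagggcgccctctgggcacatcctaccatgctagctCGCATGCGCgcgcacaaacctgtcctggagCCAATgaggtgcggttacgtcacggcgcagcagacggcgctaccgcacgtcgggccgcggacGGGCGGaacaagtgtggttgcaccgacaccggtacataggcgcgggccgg

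The NRF1 element began 31 bases before the TSS of Ndufs7, 92 before that of Cycs and 24 after that of Ndufa6. Ndufaf3 and Atp5g1 had no match to it in this window. Atp5g1 had 5 CCAAT boxes between 190 and 30 bases before its TSS, and Cycs had a cyclic AMP response element 200 bases before its own. Ndufv1, the gene of smallest p of all, held none of the 8 searched elements and is therefore not printed.

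Tags precipitated with anti-FLAG outnumbered IgG tags at most respiratory chain promoters, by a modest ratio. Within 1 kb of the TSS the 93 genes had a median of 22 anti-FLAG tags and 12 IgG tags, and all promoters had medians of 11 and 7. The anti-FLAG count was above the scaled IgG count at 85 of the 93 genes and at 17046 of all 22350 protein-coding promoters, which include those with few tags. The median log2 ratio, with 1 tag added to each count, was 0.85 for the 93 genes and 0.59 for all promoters. Of the 93 genes, 80 held at least 20 tags in both libraries together and were tested with the exact conditional binomial test, adjusted over all tested promoters. Anti-FLAG was higher at 27 of these 80, or 33.8%, and lower at none. Among all 10947 tested promoters it was higher at 29.7%, so the share of the respiratory chain genes was near the background. With the difference in GC coverage corrected, as described further on, 3 of the 27 calls remained. A ratio of at least 2 was reached by 38 of the 80, again near the 48.2% of all tested promoters. Once promoters under 20 tags are set aside, the medians also lay close, at 0.89 for the 80 genes and 0.88 for all tested promoters.

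The excess was concentrated at the TSS itself. Within 500 bp the 93 genes had a median of 14 anti-FLAG tags and 5 IgG tags, and all promoters had medians of 6 and 3. The median log2 ratio in this window was 1.29 for the 93 genes and 0.81 for all promoters. Over promoters with at least 20 tags in this window the median was 1.45 in both. At this width 44 genes held the 20 tags needed for the test, and 49 did not. Anti-FLAG was higher at 27 of the 44, or 61.4%, beside 62.4% of all promoters tested at this width, and 5 of these 27 calls remained with the GC correction. The genes called at the 2 widths were partly different: 14 passed at both, 13 within 1 kb only and 13 within 500 bp only. Of the 13 that passed within 1 kb only, 2 had enough tags to be tested within 500 bp.

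**Figure D1:**
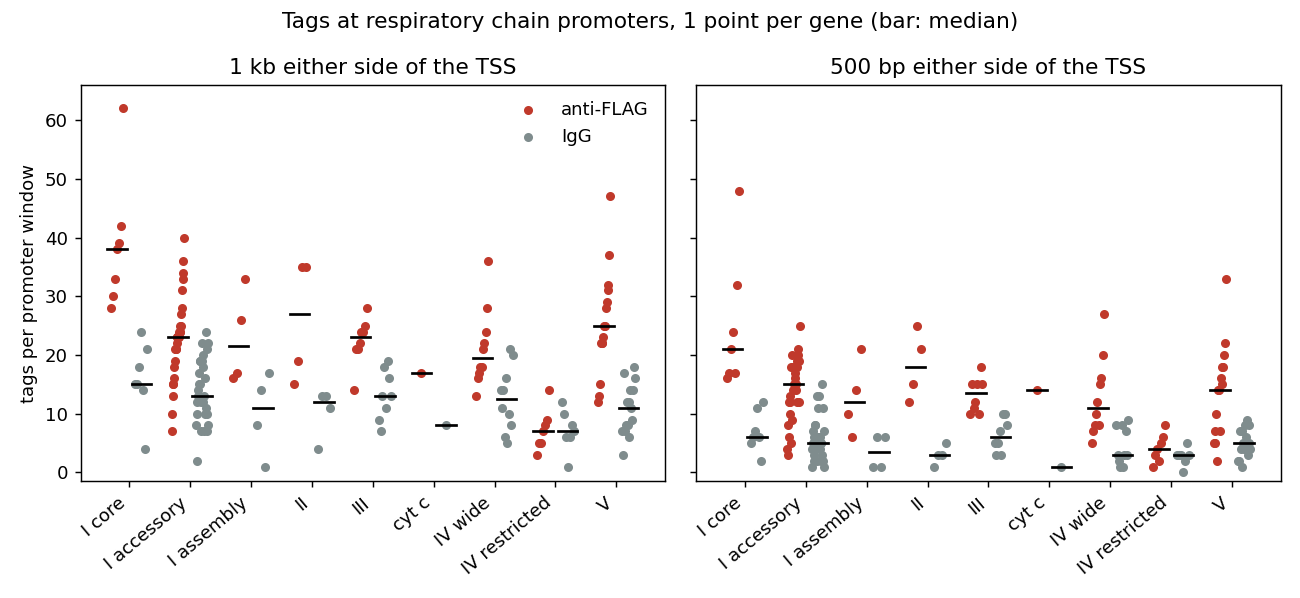
Anti-FLAG tags (left) and IgG tags (right of each pair) within 1 kb and within 500 bp of the TSS, 1 point per gene and a bar at the median, by complex. The Ndufa4 pair and the 6 records of other symbols are not drawn. The 7 core subunits of complex I lie between 28 and 62 anti-FLAG tags within 1 kb, and the tissue-restricted isoforms of complex IV between 3 and 14.

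Summed over the 93 genes, the 250 bp before the TSS held 480 anti-FLAG and 116 IgG tags. Relative to the density at 4 to 5 kb from the TSS, this was 4.32 for anti-FLAG and 1.28 for IgG. Over all promoters the same stretch stood at 2.19 for anti-FLAG and 0.813 for IgG. In the 250 bp after the TSS the respiratory chain genes had 310 anti-FLAG and 65 IgG tags, or 2.79 and 0.716 times the distant density. The ratio around the TSS thus rests on an anti-FLAG peak, highest just before the TSS, and an IgG dip, lowest just after it. In 50-bp bins the anti-FLAG maximum of the 93 genes, 106 tags, lay in the 50 bases before the TSS. The IgG minimum, 8 tags, lay in the 50 bases after it.

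**Figure D2:**
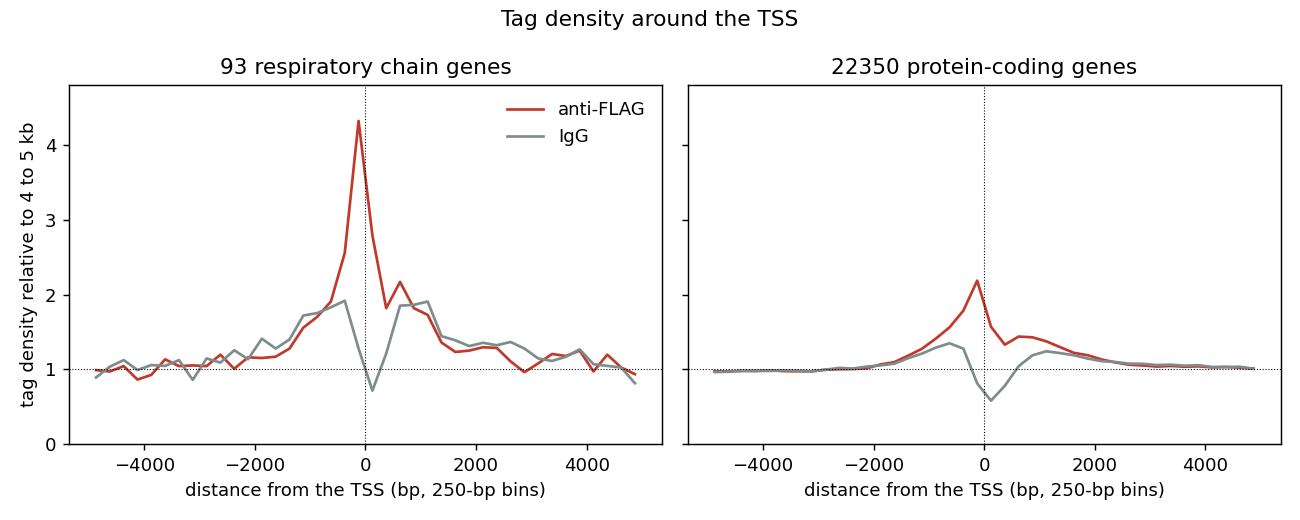
Tag density in 250-bp bins around the TSS, relative to the mean at 4 to 5 kb, for the 93 respiratory chain genes (left) and all 22350 protein-coding genes (right), with 1 line per antibody. The anti-FLAG line reaches 4.32 just before the TSS of the respiratory chain genes and 2.19 over all genes, and the IgG line dips to 0.716 and 0.582 just after it.

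Away from the TSS the excess was smaller. From 1000 to 500 bp upstream the 93 genes held 401 anti-FLAG and 325 IgG tags, a pooled ratio of 1.24 (1.07 to 1.44). In the 500 bp directly before the TSS the pooled ratio was 2.65 (2.31 to 3.04), and in the 500 bp directly after it 2.94 (2.47 to 3.51). From 500 to 1000 bp downstream it was 1.32 (1.15 to 1.53). Over gene bodies, from 2 kb past the TSS to the gene end, the 83 genes long enough to measure held 4231 anti-FLAG and 4257 IgG tags. That ratio was 1.00 (0.958 to 1.04), and for all gene bodies it was 1.02 (1.02 to 1.02). Atp5o was left out of the gene bodies because its annotated record spans other genes.

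Complex I, the NADH dehydrogenase, had its clearest excess at the 7 core subunits that carry the flavin, the iron-sulfur clusters or the quinone site. Within 500 bp all 7 passed the test, beside 62.4% of all tested promoters, and 2 of the 7 also passed with the GC correction. Within 1 kb 3 of the 7 passed, beside 29.7% of all tested promoters. Ndufv1, whose product binds FMN and NADH, had 42 anti-FLAG and 4 IgG tags in the 1-kb window, a ratio of 10.6 (3.83 to 40.6), with an adjusted exact p of 3.09e-06. Within 500 bp it had 32 anti-FLAG and 2 IgG tags, adjusted exact p = 4.27e-06, and 24 of its anti-FLAG tags lay in the 500 bp before the TSS. Ndufv1 was the gene of smallest p in the set, and no other annotated TSS lay within 2 kb of its own.

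Ndufs7, a core subunit near the quinone site, had the highest anti-FLAG count, 62 tags against 21 IgG tags in the 1-kb window (adjusted exact p = 3.39e-04). Within 500 bp it had 48 anti-FLAG and 12 IgG tags, with 28 of the anti-FLAG tags after the TSS. Ndufs3 had 39 anti-FLAG tags within 1 kb, against 14 IgG tags (adjusted exact p = 0.00564) and 17 anti-FLAG and 6 IgG tags within 500 bp. The core subunits described next did not pass within 1 kb. In that window Ndufs8 had 38 anti-FLAG and 24 IgG tags, and in the narrower one 24 anti-FLAG and 11 IgG tags. It lies in the arm that passes electrons to quinone. Ndufv2, the partner of Ndufv1, had 30 anti-FLAG and 15 IgG tags in the wider window and 17 anti-FLAG and 6 IgG tags in the narrower one. Ndufs1, which holds several iron-sulfur clusters, had 28 anti-FLAG and 15 IgG tags in the wider window and then 16 anti-FLAG and 5 IgG tags. These 3 genes passed within 500 bp with adjusted exact p from 0.0301 to 0.0458. The TSS of Ndufs1 lies 3 bp from that of Eef1b2 on the opposite strand, so its tags cannot be assigned to either gene. Pooled over the 7 genes, anti-FLAG tags were 2.46 times IgG tags (1.97 to 3.10) within 1 kb and 3.59 times (2.60 to 5.04) within 500 bp. Pooled over all protein-coding promoters, those with few tags included, the ratios were 1.66 (1.65 to 1.67) and 2.14 (2.12 to 2.16).

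The 29 accessory subunits of complex I, which surround the core, had a lower pooled ratio than the core subunits. It was 1.66 (1.46 to 1.88) within 1 kb and 2.42 (2.02 to 2.91) within 500 bp, beside 1.66 and 2.14 over all promoters. The accessory interval lies below that of the core subunits within 1 kb and overlaps it within 500 bp. With the GC correction the intervals of the classes overlap within 1 kb as well. The core sum within 1 kb includes Ndufv1, with 42 anti-FLAG and 4 IgG tags, and the ratio without it was not computed. The difference between core and accessory subunits was not tested. Of the 27 tested within 1 kb, 7 passed, or 25.9%, beside 29.7% of all tested promoters. The 7 were Ndufa6, Ndufa13, Ndufb5, Ndufa11, Ndufc2, Ndufa7 and Ndufv3. Ndufa6 had 34 anti-FLAG tags within 1 kb, against 7 IgG tags (adjusted exact p = 6.86e-04), and 19 anti-FLAG and 2 IgG tags within 500 bp. Ndufa13, also known as GRIM-19, had 36 anti-FLAG and 8 IgG tags in the 1-kb window (adjusted exact p = 6.86e-04) and 12 anti-FLAG and 1 IgG tag within 500 bp, too few for the test there. Within 500 bp 9 of 17 tested accessory subunits passed, or 52.9%, beside 62.4% of all tested promoters. The 9 included Ndufb6 with 18 anti-FLAG and 2 IgG tags, whose 1-kb window held 25 anti-FLAG and 16 IgG tags. Many other accessory subunits were close to even within 1 kb: Ndufa12 had 23 anti-FLAG and 22 IgG tags, Ndufa10 18 anti-FLAG and 17 IgG tags, and Ndufb4 and Ndufb9 21 anti-FLAG and 19 IgG tags each. Ndufab1, the mitochondrial acyl carrier protein, had 16 anti-FLAG and 14 IgG tags, and Ndufs4, an accessory subunit despite its symbol, had 23 anti-FLAG and 20 IgG tags. The X-linked Ndufa1 and Ndufb11 were under the minimum, with 7 anti-FLAG and 8 IgG tags and with 10 anti-FLAG and 2 IgG tags.

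Among the 4 assembly factors of complex I, Ndufaf3 had 26 anti-FLAG tags and 1 IgG tag within 1 kb. Its ratio of 26.2 has an interval of 4.30 to 1072, since it rests on 1 IgG tag, and its adjusted exact p was 6.22e-05. Within 500 bp it had 14 anti-FLAG tags and 1 IgG tag, so part of its excess lay in the outer window. Ndufaf1 passed within 500 bp only, with 21 anti-FLAG and 6 IgG tags. Ndufaf2 had 16 anti-FLAG and 8 IgG tags in the 1-kb window and Ndufaf4 17 anti-FLAG and 14 IgG tags. Ndufb8 appears as 2 gene records. The first, an accessory subunit, had 40 anti-FLAG and 22 IgG tags in the 1-kb window and 25 anti-FLAG and 7 IgG tags within 500 bp. The second record starts within the gene and had 16 anti-FLAG and 17 IgG tags in the 1-kb window, among the lowest log2 ratios of the tested genes at -0.07.

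Complex II, the succinate dehydrogenase that also serves the citric acid cycle, had the highest pooled ratio within 500 bp of the complexes with 4 or more genes. Its 4 genes held 73 anti-FLAG and 12 IgG tags there, a ratio of 6.12 (3.30 to 12.4). Within 1 kb the ratio was 2.55 (1.76 to 3.76). Over all promoters the ratios were 2.14 within 500 bp and 1.66 within 1 kb. Sdhc, a membrane anchor, had 35 anti-FLAG and 11 IgG tags in the 1-kb window (adjusted exact p = 0.00437) and 21 anti-FLAG and 5 IgG tags within 500 bp. Sdhd, the other anchor, had 35 anti-FLAG and 13 IgG tags in the 1-kb window (adjusted exact p = 0.0108) and 25 anti-FLAG and 3 IgG tags within 500 bp (adjusted exact p = 2.45e-04). Sdha, the flavoprotein, had 19 anti-FLAG and 13 IgG tags in the 1-kb window and did not pass, and its 500-bp window held 15 anti-FLAG and 3 IgG tags. Sdhb, the iron-sulfur protein, was under the minimum with 15 anti-FLAG and 4 IgG tags in the 1-kb window and 12 anti-FLAG and 1 IgG tag within 500 bp. Sdhd and Sdha share their promoter region with an opposite-strand TSS: that of Timm8b lies 52 bp from Sdhd and that of Ccdc127 29 bp from Sdha.

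Complex III, the cytochrome bc1 complex, had 1 gene of 8 past the test within 1 kb and none of 3 tested within 500 bp. The shares of all tested promoters were 29.7% and 62.4%. Uqcrc2, a core protein of the matrix arm, had 21 anti-FLAG and 7 IgG tags in the 1-kb window (adjusted exact p = 0.0318) and 15 anti-FLAG and 3 IgG tags within 500 bp. Uqcr11 had 28 anti-FLAG and 13 IgG tags in the 1-kb window (adjusted exact p = 0.0589). Uqcrfs1, the Rieske iron-sulfur protein, had 21 anti-FLAG and 13 IgG tags, and Uqcrc1, the partner of Uqcrc2, had 14 anti-FLAG and 9 IgG tags. The pooled ratio of complex III was 1.70 (1.33 to 2.18) within 1 kb and 2.09 (1.48 to 2.98) within 500 bp. Both lay near the pooled ratios of all promoters, 1.66 and 2.14. Cycs had 17 anti-FLAG and 8 IgG tags in the 1-kb window (adjusted exact p = 0.152). Within 500 bp it had 14 anti-FLAG tags and 1 IgG tag, too few for the test, with 11 of the anti-FLAG tags in the 500 bp before the TSS that contain its NRF1 element. A lincRNA, 5430402O13Rik, starts 105 bp away on the opposite strand.

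**Figure D3:**
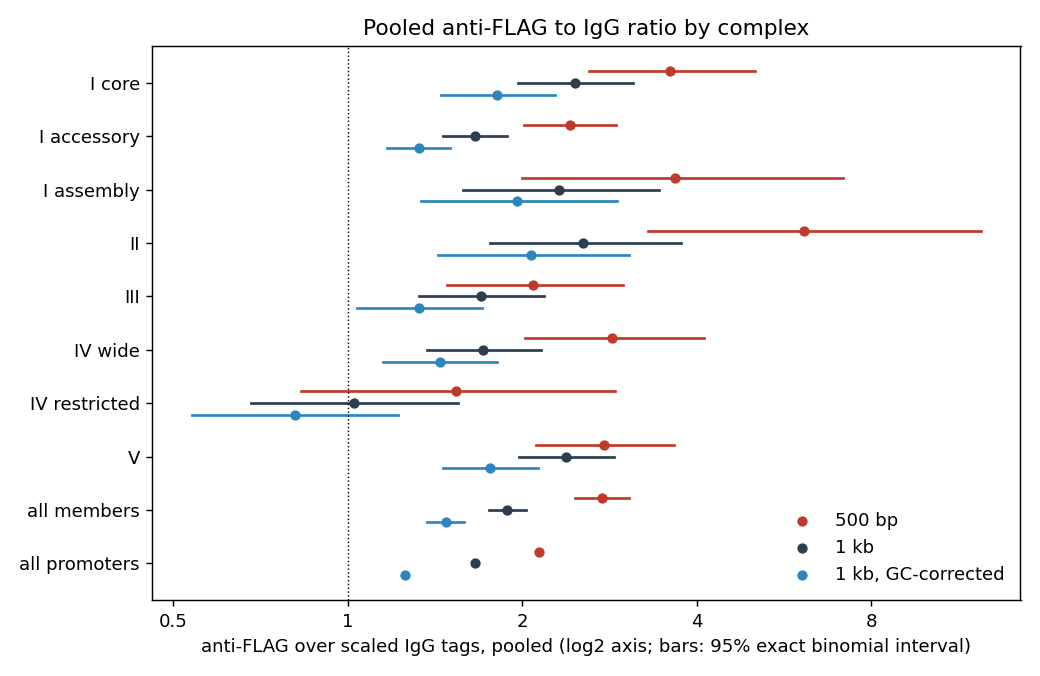
Pooled anti-FLAG to IgG ratio of each class, for all 93 genes and for all promoters, on a log2 axis with 95% exact binomial intervals, within 500 bp, within 1 kb and within 1 kb after GC correction. Complex II stands at 6.12 within 500 bp and the tissue-restricted isoforms of complex IV at 1.03 within 1 kb, where the interval spans 1. All promoters stand at 2.14 within 500 bp and 1.66 within 1 kb.

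Complex IV, cytochrome c oxidase, is the complex with the most paired isoforms in this set. Anti-FLAG exceeded IgG over the sum of its widely expressed subunits, and the counts were nearly equal over the tissue-restricted ones. Its 10 widely expressed subunits had a pooled ratio of 1.71 (1.37 to 2.16) within 1 kb, near the 1.66 of all promoters. Of the 10, all tested, 3 passed, beside 29.7% of all tested promoters. The 7 tissue-restricted isoforms, known mainly from heart and skeletal muscle, lung or testis, held 51 anti-FLAG and 50 IgG tags in all. Their pooled ratio was 1.03 (0.681 to 1.55), and 1 of the 7 reached the 20 tags needed for the test. The median GC was 50.6% in both classes, while the ratio of observed to expected CpG was 0.332 in the restricted isoforms and 0.695 in the wide ones. Within 500 bp the pooled ratios were 1.54 (0.832 to 2.90) for the restricted isoforms and 2.86 (2.02 to 4.11) for the wide ones. Over all promoters the ratio at this width was 2.14. The intervals of the classes overlap within 500 bp as they do within 1 kb.

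Set side by side, the restricted isoforms had few anti-FLAG tags. Cox4i2, the lung isoform, had 5 anti-FLAG and 10 IgG tags in the 1-kb window, whereas the widely used Cox4i1 had 21 anti-FLAG and 5 IgG tags (adjusted exact p = 0.0108). Cox6a2, of heart and skeletal muscle, had 7 anti-FLAG and 1 IgG tag, and Cox6a1 had 18 anti-FLAG and 6 IgG tags (adjusted exact p = 0.0484). In the next pairs the wide isoform was itself near even. Cox6b2, of testis, had 5 anti-FLAG and 6 IgG tags, and Cox6b1 had 18 anti-FLAG and 16 IgG tags. Cox7b2, also of testis, had 3 anti-FLAG and 12 IgG tags, the lowest ratio in the set at 0.251 (0.0455 to 0.932), and the X-linked Cox7b had 17 anti-FLAG and 14 IgG tags. The Cox8 family has 3 members in the mouse. Cox8b, of muscle, had 9 anti-FLAG and 8 IgG tags, and Cox8c, of testis, had 8 anti-FLAG and 6 IgG tags. Cox8a, their wide counterpart, had 36 anti-FLAG and 20 IgG tags in the 1-kb window (adjusted exact p = 0.0855) and passed within 500 bp with 27 anti-FLAG and 9 IgG tags. Cox7a1, of muscle, was the restricted isoform with enough tags to be tested and had 14 anti-FLAG and 7 IgG tags (adjusted exact p = 0.228), while Cox7a2 had 24 anti-FLAG and 21 IgG tags. Every restricted isoform thus had fewer anti-FLAG tags than its wide counterpart, but the IgG tags were also fewer in 6 of the 7, Cox4i2 being the exception with more IgG tags than Cox4i1. The anti-FLAG to IgG ratio did not always follow the anti-FLAG count. It was 7.04 (0.905 to 317) for Cox6a2, on 1 IgG tag, and 3.02 for Cox6a1. Cox7a1 stood at 2.01 (0.760 to 5.89) and Cox7a2 at 1.15. In the other families the restricted isoforms had the lower ratio.

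**Figure D4:**
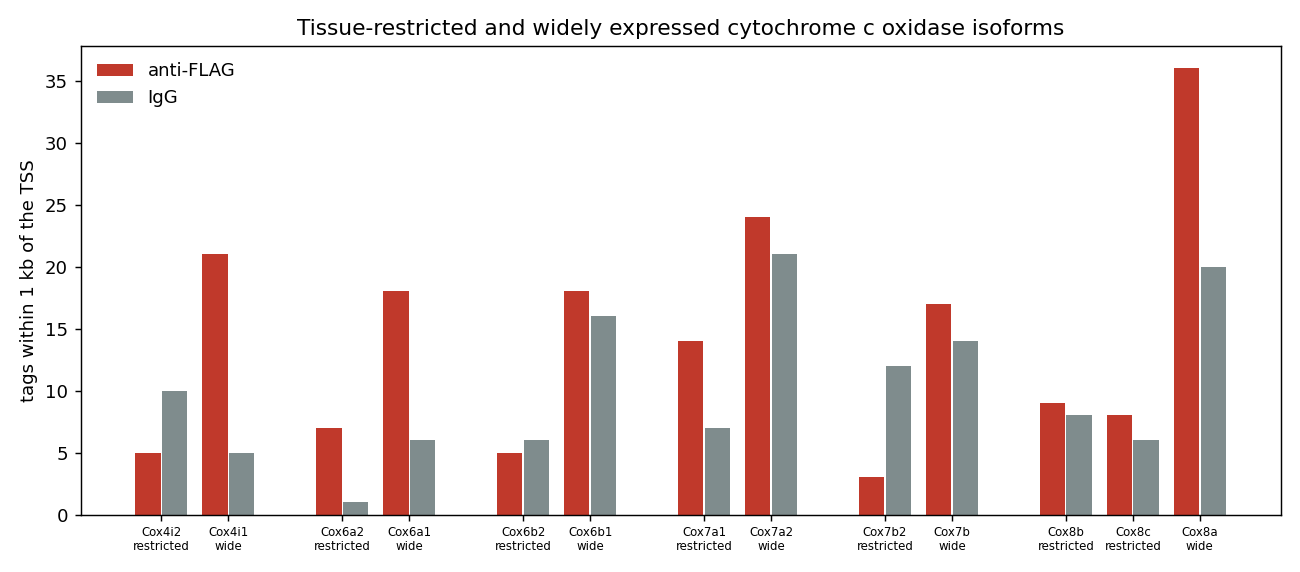
Anti-FLAG (left bar) and IgG (right bar) tags within 1 kb of the TSS for each tissue-restricted isoform of cytochrome c oxidase and its widely expressed counterpart. The restricted isoforms reach at most 14 anti-FLAG tags, and the wide ones lie between 17 and 36.

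The Cox6a pair shows how the promoters of such isoforms differ in sequence, and it was chosen for printing after its values were seen. Both are shown as above, with the ETS element (CCGGAAG) also in capitals. Cox6a1 lies at chr5:115798941-115799240 and Cox6a2 at chr7:135349831-135350130, both on the minus strand.
Cox6a1: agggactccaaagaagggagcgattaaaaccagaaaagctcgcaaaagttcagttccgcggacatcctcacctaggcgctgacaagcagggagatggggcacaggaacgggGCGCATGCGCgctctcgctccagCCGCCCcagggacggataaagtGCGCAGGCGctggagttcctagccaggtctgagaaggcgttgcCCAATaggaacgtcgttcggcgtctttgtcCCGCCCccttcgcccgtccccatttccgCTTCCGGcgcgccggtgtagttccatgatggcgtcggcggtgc
Cox6a2: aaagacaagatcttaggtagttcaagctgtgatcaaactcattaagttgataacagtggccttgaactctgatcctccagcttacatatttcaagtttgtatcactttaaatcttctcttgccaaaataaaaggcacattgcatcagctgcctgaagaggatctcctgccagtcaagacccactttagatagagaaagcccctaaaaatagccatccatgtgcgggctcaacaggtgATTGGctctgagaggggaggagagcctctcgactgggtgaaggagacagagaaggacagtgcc

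Cox6a1 holds NRF1 elements that begin 139, 138 and 94 bases before the TSS, of which the first pair overlap. It also has an ETS element 7 bases after the TSS and SP boxes 116 and 21 bases before it. Cox6a2 holds none of these. Both have a single CCAAT box, 51 bases before the TSS in Cox6a1 and 13 before it in Cox6a2. The pair does not stand for the whole complex. No other widely expressed subunit held an NRF1 element, and Cox5b and Cox7c held no searched element. The restricted Cox6b2, Cox7b2 and Cox8c held SP boxes. An ETS element was also found in Cox4i1, Cox6b1 and Cox8a and in no restricted isoform. Elsewhere in complex IV, Cox5b, a subunit that binds zinc, had the smallest p, with 28 anti-FLAG and 8 IgG tags in the 1-kb window (adjusted exact p = 0.00731) and 20 anti-FLAG and 3 IgG tags within 500 bp. Cox7c was at the low end of the tested genes, with 13 anti-FLAG and 14 IgG tags and a log2 ratio of -0.09. The TSS of Cox4i1 lies 178 bp from that of Cox4nb on the opposite strand, so most of its tags are also counted for Cox4nb, which had 21 anti-FLAG and 8 IgG tags. Ndufa4, first counted with complex I and since placed with complex IV, had 35 anti-FLAG and 12 IgG tags (adjusted exact p = 0.00716), whereas Ndufa4l2, its hypoxia-inducible paralog, had 10 anti-FLAG and 6 IgG tags.

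Complex V, the ATP synthase, had the largest share of genes past the test within 1 kb among the complexes with more than 4 genes. Of 13 tested, 9 passed, beside 29.7% of all tested promoters, and the pooled ratio of all 15 was 2.38 (1.97 to 2.88). Within 500 bp 5 of 8 passed, or 62.5%, near the 62.4% of all tested promoters. The pooled ratio at this width was 2.76 (2.11 to 3.65). Over all promoters the pooled ratios were 1.66 within 1 kb and 2.14 within 500 bp. With the GC correction 0 of the complex V genes passed within 1 kb and 1 within 500 bp. Subunit c of the membrane ring is encoded by 3 genes that give the same mature protein. Atp5g1 had 47 anti-FLAG and 16 IgG tags in the 1-kb window (adjusted exact p = 0.00188) and 33 anti-FLAG and 4 IgG tags within 500 bp (adjusted exact p = 2.94e-05). Atp5g2 had 37 anti-FLAG and 18 IgG tags in the 1-kb window (adjusted exact p = 0.0385), and Atp5g3 had 22 anti-FLAG and 12 IgG tags and did not pass. In the F1 head, Atp5b, the catalytic beta subunit, had 31 anti-FLAG and 9 IgG tags (adjusted exact p = 0.00516), and Atp5c1, the gamma shaft, had 22 anti-FLAG and 7 IgG tags. Atp5a1, the alpha subunit, had 25 anti-FLAG and 12 IgG tags and did not pass, and Atp5e, the epsilon subunit, had 15 anti-FLAG and 17 IgG tags, the lowest log2 ratio among the tested genes at -0.16.

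In the peripheral stalk of complex V some 1-kb windows also held the TSS of a neighbour, and which gene the tags belong to was not tested. Atp5f1, subunit b of the stalk, had 25 anti-FLAG and 6 IgG tags in the 1-kb window (adjusted exact p = 0.00564) but 7 anti-FLAG and 4 IgG tags within 500 bp. Of the 25, 11 lay 500 to 1000 bp downstream, where Wdr77 starts on the opposite strand 730 bp from the TSS of Atp5f1. Another 7 lay 1000 to 500 bp upstream. Atp5j, the coupling factor F6, had 22 anti-FLAG and 8 IgG tags in the 1-kb window (adjusted exact p = 0.0385) but 2 anti-FLAG and 1 IgG tag within 500 bp. Of the 22, 12 lay 500 to 1000 bp downstream, where Gabpa starts 700 bp from the TSS of Atp5j, and 8 lay 1000 to 500 bp upstream. Gabpa, the DNA-binding subunit of GABP, itself had 14 anti-FLAG and 0 IgG tags within 500 bp. Atp5o, the oligomycin sensitivity protein, passed at both widths, with 32 anti-FLAG and 14 IgG tags in the 1-kb window and 20 anti-FLAG and 5 IgG tags within 500 bp.

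Shared promoters were common in the set. Another TSS lay within 2 kb of that of 38 genes, or 40.9%, beside 20.1% of all protein-coding genes. Of the 35 tested genes with such a neighbour, 17 passed within 1 kb, and of the 45 tested genes without, 10 passed. Among all promoters, 37.9% of those tested with a neighbour and 26.3% of those without passed. Within 500 bp, 11 of 18 tested genes with a neighbour and 16 of 26 without passed, or 61.1% and 61.5%. Among all promoters the shares at this width were 70.9% with a neighbour and 58.0% without. The pooled ratio of the respiratory chain genes within 500 bp was 2.90 (2.44 to 3.46) with a neighbour and 2.65 (2.31 to 3.05) without, and over all promoters it was 2.68 (2.63 to 2.74) and 2.02 (2.00 to 2.04).

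Correction for GC coverage left few calls. With the expected share raised or lowered by what windows far from any TSS showed at the same GC, 3 of the 80 genes passed within 1 kb, beside 1.74% of all tested promoters. They were Ndufv1 (adjusted exact p = 4.02e-04), Ndufaf3 (0.0219) and Ndufs7 (0.0261), all of complex I. Within 500 bp 5 of the 44 passed, beside 11.0% of all, namely Ndufv1 (adjusted exact p = 0.00243), Ndufs7 (0.00441), Atp5g1 (0.0106), Ndufc2 (0.0176) and Sdhd (0.0363). No gene was lower. The corrected pooled ratio of the 93 genes was 1.48 (1.37 to 1.59) within 1 kb and 1.77 (1.59 to 1.97) within 500 bp, beside 1.25 (1.25 to 1.26) and 1.37 (1.35 to 1.38) for all promoters. Among the classes it was 2.07 (1.43 to 3.05) for complex II, 1.81 (1.45 to 2.28) for the core subunits of complex I, 1.76 (1.46 to 2.13) for complex V and 0.811 (0.538 to 1.22) for the restricted isoforms within 1 kb. The median corrected log2 ratio within 1 kb was 0.51 for the 93 genes and 0.23 for all promoters. Over tested promoters only, it was 0.54 for the respiratory chain genes and 0.45 for all within 1 kb. Within 500 bp these tested medians were 0.78 and 0.92.

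**Figure D5:**
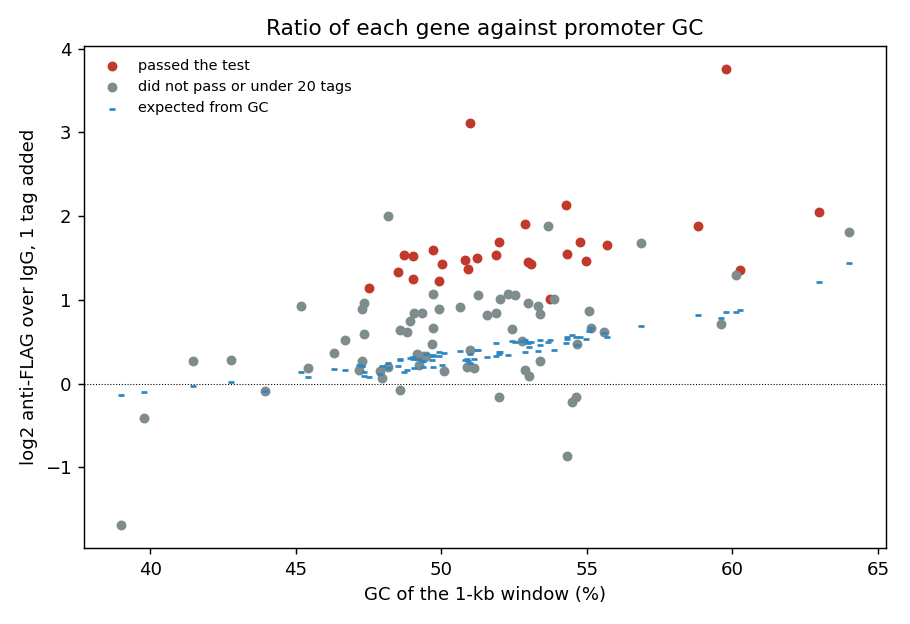
Log2 anti-FLAG to IgG ratio of each of the 93 genes against the GC of its 1-kb window, in red where the gene passed the test, with dashes at the ratio that windows far from any TSS had at that GC. Genes lie above their dash at a median of 0.51 on the log2 scale, and Ndufaf3 and Ndufv1 stand highest at 3.76 and 3.11.

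Regions of local anti-FLAG enrichment, called without reference to genes, overlapped the 1-kb windows of 21 of the 93 genes, or 22.6%, beside 7.34% of all protein-coding promoters. Promoters with few tags in either library are part of that last share. The 21 comprised 13 of complex I, 4 of complex V, 2 of complex II, Cox8a of complex IV and Cox7a2l, which is known for a role in supercomplexes. No region overlapped a promoter of complex III, Cycs or a restricted isoform. Cox7a2l passed within 500 bp with 21 anti-FLAG and 4 IgG tags, and its 1-kb window held 26 anti-FLAG and 12 IgG tags (adjusted exact p = 0.0675).

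The NRF1, ETS, YY1 and cyclic AMP response elements were found in a larger share of the set than of all promoters, in the same window of 300 bases and on either strand. The NRF1 element was found in 18 of the 93, or 19.4%, beside 8.03% of all promoters, and the ETS element also in 19.4%, beside 10.8%. The YY1 element (AAGATGGCG) was found in 6.45%, beside 1.83%, and the cyclic AMP response element in 5.38%, beside 2.33%. SP boxes (46.2%, beside 43.5%) and CCAAT boxes (39.8%, beside 37.9%) had similar shares in both. The TATA element (TATAAA) was found in 9.68%, beside 13.4%. The E2F element (TTTCCCGC) was found in Cox4i2 alone, or 1.08%, beside 1.33% of all promoters.

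The anti-FLAG to IgG ratio can be set beside the presence of each element. The median log2 ratio within 1 kb was 0.98 for the 18 genes with an NRF1 element and 0.84 for the 75 without. With an ETS element it was 0.85, the same as without to 2 decimals. The 6 genes with a YY1 element had a median of 0.67 and those without 0.89. The 5 genes with a cyclic AMP response element had a median of 0.66 and those without 0.86, and Cox4i2, with the E2F element, had a log2 ratio of -0.87. For SP boxes, CCAAT boxes and the TATA element the median was 0.89 with each and between 0.84 and 0.85 without. Of the 17 tested genes with an NRF1 element, 7 passed within 1 kb, of the 16 with an ETS element 3, and of the 5 with a YY1 element none. These are counts over few genes and were not tested.

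Other genes of the same biology are given beside the same 29.7% of all tested promoters past the test within 1 kb. With the GC correction none of the calls below remained among the regulators, 1 among the assembly factors (Cox15, adjusted exact p = 0.0266) and 1 among the citric acid cycle genes (Sucla2, adjusted exact p = 0.0117). Of 22 mitochondrial regulators, 19 were tested and 7 passed, with a median log2 ratio of 0.85 over the list. Polg, the mitochondrial DNA polymerase, had 33 anti-FLAG and 5 IgG tags (adjusted exact p = 2.07e-04), and Sp1 and Esrra, the gene of the estrogen-related receptor alpha, had 31 anti-FLAG and 7 IgG tags each. Nrf1 itself had 13 anti-FLAG and 7 IgG tags and did not pass. Of 27 assembly factors with other symbols, 26 were tested and 10 passed, with a median of 0.91. Cox15, needed for heme A, had 52 anti-FLAG and 14 IgG tags (adjusted exact p = 1.77e-04), and Ttc19, which acts on complex III, had 23 anti-FLAG and 3 IgG tags (adjusted exact p = 0.00142). Of 16 citric acid cycle and pyruvate dehydrogenase genes, 15 were tested and 4 passed, with a median of 0.78. Sucla2, a subunit of succinyl-CoA ligase, had 37 anti-FLAG and 10 IgG tags (adjusted exact p = 0.00169), and Dlat had 17 anti-FLAG and 4 IgG tags (adjusted exact p = 0.0212).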

How the data were processed

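The files deposited by the authors list mapped tags, 1 line each. The deposited score column holds the constant 512 and was not used. No source used here names the aligner, build or filters. Tags were 36 bp long, none shared position and strand, and all fell inside the chromosomes of NCBIM37, which was used. Groups follow the antibody in the labels. Members, lists, elements and alternatives were chosen with earlier results of these data known.

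Tags were moved 76 bp downstream, from the lag of 152 bp between strands, and counted within 1 kb and 500 bp of each gene's 5' end on the 19 autosomes and X. IgG counts were multiplied by 0.994 to match library totals. The conditional binomial test, exact and 2-sided, was run on promoters with at least 20 tags, Benjamini-Hochberg adjusted over all of them and called at 0.05. Pooled ratios have exact binomial intervals. The GC correction used strata of 2 points with at least 200 windows of 500 bp. To call regions, 500-bp windows every 250 bp were kept and joined where they had 10 or more anti-FLAG tags, 2-fold excess and a Poisson p under 1e-05. The test was also run on promoter tags dealt at random into 2 libraries, with and without planted fold changes. Such draws hold no variation between replicate libraries, so they cannot show how the test would fare with it. Genes given in full were the 12 of smallest p, the 3 of lowest ratio, the 2 of smallest p per complex and per other list, the core subunits of complex I, complex II, Cycs and the isoform families. A few single-gene values under the rule are left out. Of the further genes, those described were picked after their values were seen. Python 3.11.15, NumPy 2.4.6, SciPy 1.17.1, pandas 2.3.3 and Matplotlib 3.10.9 were used.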

Additional observations from a re-analysis of the deposited data

How the results depend on the processing

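With the GC correction 3 of 80 tested genes passed within 1 kb and 5 of 44 within 500 bp. The shares of all tested promoters were 1.74% and 11.0%. Median log2 ratios of the 93 genes were then 0.51 and 0.66. Pooled ratios within 1 kb were then 1.81 for core and 1.32 for accessory subunits of complex I, 1.33 for complex III and 1.76 for complex V. Within 2.5 kb of the TSS 16 of 92 tested genes passed, beside 2131 of all 20310 tested promoters. The median was 0.52, beside 0.37 for all promoters. Pooled ratios were 1.95 for core subunits, 1.37 for accessory subunits and 1.47 for assembly factors of complex I, 1.65 for complex II and 1.49 for complex V. Without genes that have another TSS within 2 kb, 9 of 45 passed within 1 kb, beside 1940 of all 7759. Within 500 bp 16 of 26 then passed, beside 1147 of all 1979. The medians were 0.66 and 1.07, beside 0.49 and 0.64 for all promoters, and complex II stood at 3.77 from Sdhb alone. Scaling by sparse 10-kb bins (0.909) gave a median of 0.97 within 1 kb, beside 0.70 for all promoters. With it 36 of 80 genes passed, beside 4132 of all 10947 tested promoters. Moving the tag shift, minimum, added count, TSS choice or strand filter, or leaving out the 6 records of other symbols, kept these counts and medians near the reported ones, with 19 to 28 genes within 1 kb and 24 to 36 within 500 bp. The 19 of 93, without a minimum, stand beside 2657 of all 21703 promoters. The 28 of 81, with the TSS of most transcripts, stand beside 3256 of 10911. Within 500 bp the 24 of 40, with tags not shifted, stand beside 1860 of 3015. The 36 of 80, with a minimum of 10 tags, stand beside 3456 of 10381. No value past its threshold changed sign. Ratios that had not passed did so under some settings. With the GC correction the restricted isoforms of complex IV stood at 0.811 pooled, and the log2 ratios were -0.32 for Cox8b and -0.04 for Cox6b1. Within 2.5 kb they were 0.12 for Cox4i2, 0.37 for the second Ndufb8 record, 0.20 for Cox7c, -0.21 for Cox8c, -0.10 for Cox7a2 and -0.02 for Atp5g3. With the sparse-bin scaling Cox7c was at 0.03 and the second Ndufb8 record at 0.05. Of the 42 genes named by rule, 14 lost the threshold with the GC correction and 8 within 2.5 kb, where 3 gained it. At this depth promoters under 20 tags were not tested, and intervals cover counting error only. No paired analysis was possible because each antibody has 1 library.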
